A study of Mus musculus with 69 samples.

Results

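The 24 h rhythms of gene expression in the JNK7a livers were described from all 22 JNK7a libraries of a series of 69, which holds 24 control and 23 JNK7b libraries besides. C57/Bl6J mice of all 3 groups were fed a high-fat diet (HFD) and carried the genotype labelled J1 J2 lf/lf. JNK7a livers are those labelled CRE, JNK7b livers those labelled FLPO, which are both recombinases, and control livers those labelled GFP, a fluorescent protein. A comparison of groups therefore also compares these proteins. The JNK spliceoform alleles concern hepatocytes, whereas RNA came from whole liver. The labels leave unstated whether a group's name gives the spliceoform kept or lost, how CRE, FLPO and GFP reached the liver, and the age, sex, lighting and feeding times of the mice. Livers were taken every 3 h at clock hours 2, 5, 8, 11, 14, 17, 20 and 23, with 2 JNK7a libraries at 2 h and at 20 h and 3 at each other hour. The hours are times on the clock and not times after lights on. A single day was sampled, and libraries of the same hour share their harvest, so clock hour and the handling of a harvest cannot be told apart. Nothing in the labels ties each library to its own animal, and every p-value is thus set against a spread between libraries that may be technical.

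JNK1 and JNK2, the kinases encoded by Mapk8 and Mapk9, respond to stress and to lipid overload, and splicing gives each kinase alternative forms that differ in an internal exon. The liver clock is a loop in which BMAL1 (gene Arntl) with CLOCK or NPAS2 binds E-boxes and activates the Per and Cry genes, whose proteins then repress it. A side loop of the repressors REV-ERBα and REV-ERBβ (Nr1d1, Nr1d2) and the ROR activators acts through ROR elements (RORE), and the PAR bZIP activators DBP, TEF and HLF share D-boxes with the repressor E4BP4 (Nfil3). Through these elements, and through feeding and hormones, genes of lipid, bile acid, glucose and drug metabolism are known to cycle in liver.

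Each gene was fitted with a wave of 24 h period over clock hour (a cosine and a sine). The amplitude is the distance from the mean of the day to the fitted peak on the log2 CPM scale (CPM, counts relative to library size), and amplitudes and peak hours carry standard errors (SE) from the 22 libraries. A gene is called rhythmic at a Benjamini-Hochberg adjusted p below 0.05 in edgeR's quasi-likelihood test over the 14398 genes tested. JNK7a libraries held 27.5 to 41.9 M estimated counts (M, mega; median 33.3 M), and mitochondrial RNA took 10.5% to 14.7% of TPM. The 2 libraries at 2 h lay farthest from each other, with a median absolute log2 difference of 0.34 over genes against 0.18 to 0.28 at the other hours. Replicate 2 at 2 h also held 404 CPM of the immunoglobulin gene Ighm, whereas the other 21 JNK7a libraries held 4.87 to 26.5 CPM. Hepatocyte markers summed to 76600 to 155000 CPM, and none of its 7 genes was at 0 in all 22 libraries. Mapk8 (chromosome 14, 33377898 to 33447158, minus strand, mm10) had an amplitude of 0.11 ± 0.10 in JNK7a (adjusted p = 0.46) and Mapk9 (chromosome 11, 49846751 to 49886421, plus strand) of 0.03 ± 0.05 (adjusted p = 0.968). Neither targeted kinase gene was called rhythmic, and a gene-level count adds up the spliceoforms, so it checks neither.

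A 24 h rhythm was called for 3774 genes in JNK7a, 26.2% of those tested. Most rhythms were shallow. The called genes had a median amplitude of 0.28, with quartiles of 0.19 and 0.44, against a median of 0.19 over all tested genes. An amplitude of at least 0.5, which is a 2-fold change from trough to peak, was reached by 752 genes (5.22% of those tested), and an amplitude of at least 1 by 160. Peaks fell into 2 broad groups. Of the called genes, 568 peaked within the 3 h around clock hour 2 and 601 around 5 h, and 595 peaked around 14 h and 562 around 17 h, while only 331 and 323 peaked around 8 h and 11 h. The genes of large amplitude were placed differently, with 209 of the 752 peaking around 5 h and 111 and 119 around 17 h and 20 h, against 36 around 14 h. In 6 h windows, 1076 genes (7.47% of those tested) peaked around 2 h, 729 (5.06%) around 8 h, 1073 (7.45%) around 14 h and 896 (6.22%) around 20 h. These shares rest on the scaling. On log2(TPM + 1), on which the median gene itself ran from 0.10 above its daily mean at 2 h to 0.11 below it at 17 h, 52.6% of 3573 calls peaked around 2 h and 8.8% around 14 h, against 28.5% and 28.4% of calls on the count scale. Peaks of low amplitude are therefore given here relative to the count scale.

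**Figure D1:**
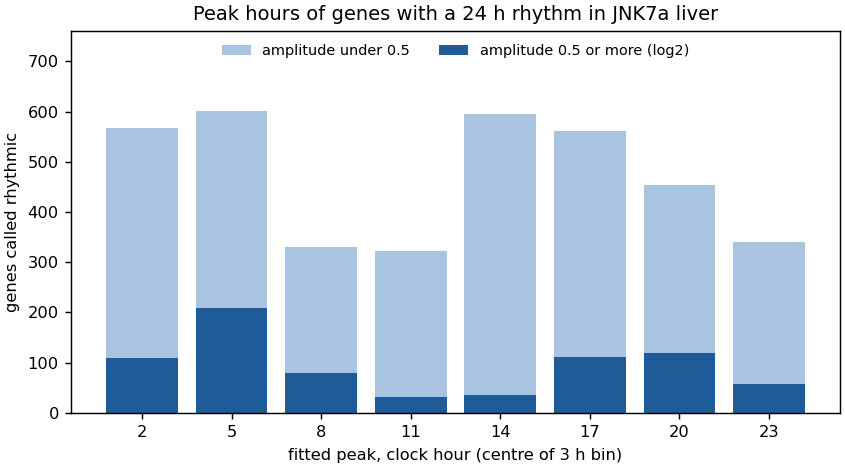
Number of genes called rhythmic in JNK7a by fitted peak, in 3 h bins of clock hour, with genes of amplitude 0.5 or more in dark blue and the others in light blue. The bins at 2, 5, 14 and 17 h each hold 562 to 601 genes, and the dark part is tallest at 5 h, with 209 genes.

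All 19 genes of the core clock lists were called rhythmic in JNK7a, with amplitudes of 0.32 (Rora) to 3.72 (Dbp), beside 26.2% of all tested genes. Their fitted peaks went round the day, from the activators between 4.11 and 6.38 h, through Nr1d1 at 13.5 h and Dbp at 16.5 h, to the Per genes between 18.4 and 19.9 h and Cry1 at 2.25 h. All 19 also differed between the 8 hours when hour was fitted with no curve. Each kept its call in every alternative run.

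Arntl (chromosome 7, 113207465 to 113314126, plus strand), which encodes BMAL1, stood at 37.5 and 29.0 CPM at 2 h, at 26.0, 28.2 and 31.4 CPM at 5 h, and at 25.0, 28.5 and 27.4 CPM at 8 h. It then fell to 12.6, 10.3 and 9.33 CPM at 11 h, to 1.20, 0.742 and 1.52 CPM at 14 h and to 1.37, 1.17 and 1.28 CPM at 17 h, and came back to 6.62 and 9.11 CPM at 20 h and 15.0, 11.2 and 13.8 CPM at 23 h. The 8 libraries of 2 to 8 h lay above all the others, and the 6 of 14 and 17 h below all others. The fitted amplitude was 2.41 ± 0.22 with a peak at 4.11 ± 0.34 h (adjusted p = 1.9e-10), a 28.3-fold change from trough to peak. Its partner Clock changed less, from 23.0 CPM on average at 17 h to 77.8 CPM at 5 h (amplitude 0.82 ± 0.07, peak 4.26 h). Npas2 (chromosome 1, 39193731 to 39363236, plus strand), the CLOCK paralogue, had 13.5, 11.3 and 16.5 CPM at 5 h and no count in either library at 20 h. At 17 h it had 0, 1.41 and 0.0261 CPM. Its fitted amplitude was 3.64 ± 0.40, which leans on the prior count added before the logarithm, and its peak came later, at 6.38 ± 0.42 h. Nfil3, the gene of the D-box repressor E4BP4, peaked with Arntl at 4.57 ± 0.46 h (amplitude 1.09 ± 0.13, adjusted p = 6.9e-10).

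The REV-ERB genes ran opposite to Arntl. Nr1d1 (chromosome 11, 98767932 to 98775333, minus strand) had 1.85 and 6.07 CPM at 2 h and 81.1, 118 and 75.4 CPM at 11 h, and the 6 libraries of 11 and 14 h lay above all the others. Its amplitude was 2.38 ± 0.19 with a peak at 13.5 ± 0.30 h (adjusted p = 2.03e-14). Nr1d2 followed 3 h later, at 16.5 ± 0.45 h, with a smaller amplitude of 1.34 ± 0.16. Rora, which encodes an activator at the same elements, peaked at 3.71 ± 0.71 h with an amplitude of only 0.32 ± 0.06.

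Dbp (chromosome 7, 45705088 to 45710203, plus strand) had the largest amplitude of the clock genes. It stood at 0.702, 1.40 and 0.367 CPM at 5 h, at 33.1, 45.2 and 25.4 CPM at 11 h and at 114, 115 and 113 CPM at 14 h. The libraries of 14 and 17 h, at 98.6 to 115 CPM, lay above all the others. The fit gave 3.72 ± 0.33, a 175-fold change, with a peak at 16.5 ± 0.34 h (adjusted p = 6.86e-16). Its relatives Tef (1.42 ± 0.13, peak 18.2 h) and Hlf (0.35 ± 0.06, peak 19.7 h) came later and moved less. The repressor genes Bhlhe41 (DEC2) and Bhlhe40 (DEC1) peaked at 16.2 ± 0.54 h and 18.9 ± 0.55 h.

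Within the list of PER and CRY repressors, Ciart, which encodes CHRONO, peaked first at 17.6 ± 0.36 h, from a mean of 0.231 CPM at 5 h to 16.0 CPM at 17 h (amplitude 3.19 ± 0.30). Per3 (chromosome 4, 151003652 to 151044665, minus strand) had 2.33, 1.00 and 1.34 CPM at 8 h and 33.9, 34.7 and 29.1 CPM at 17 h, where it lay above every other hour. Its amplitude was 2.14 ± 0.18 and its peak 18.4 ± 0.31 h (adjusted p = 3.68e-13). Per1 and Per2 peaked at 19.5 ± 0.56 h and 19.9 ± 0.27 h, and Cry2 at 20.4 ± 0.58 h with an amplitude of 0.41 ± 0.06. Cry1 was the last of the repressor genes. It rose from 4.50, 5.78 and 5.12 CPM at 14 h to 56.7 and 60.1 CPM at 2 h and peaked at 2.25 ± 0.37 h (adjusted p = 1.51e-10), 6 h or more after the Per genes. In some libraries clock genes lay off their hour's level. Replicate 1 at 8 h had 43.6 CPM of Nr1d1 against 28.1 and 22.2 CPM, and replicate 2 at 17 h had 1.41 CPM of Npas2 against 0 and 0.0261 CPM. Replicate 2 at 2 h had 6.07 CPM of Nr1d1 against 1.85 CPM and 6.47 CPM of Per3 against 2.90 CPM in its partner, and replicate 2 at 23 h had 13.3 CPM of Nr1d1 against 5.57 and 4.81 CPM. Without replicate 2 at 2 h and at 23 h together, 3253 genes were called in place of 3774, and all 19 clock genes kept their calls.

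**Figure D2:**
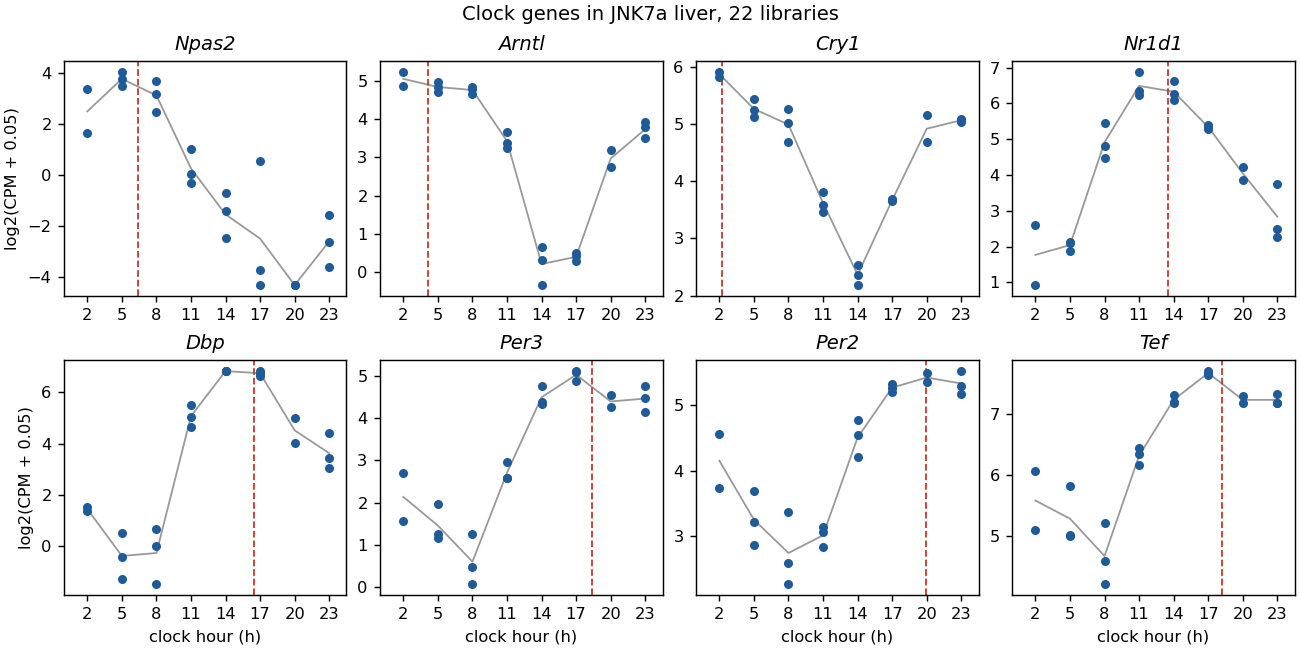
Expression of 8 clock genes as log2(CPM + 0.05) in each of the 22 JNK7a libraries against clock hour, with a grey line through the hour means and a dashed red line at the fitted peak. Arntl is lowest at 14 and 17 h, where Dbp is highest, and Tef peaks at 18.2 h.

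The promoters of these genes, where RefSeq gives a window (16 of 19 genes, GRCm38.p6), were searched on both strands over the 250 bases before the start for 3 elements: the E-box CACGTG, the D-box TTATGTAA or TTACGTAA, and the RORE core TAGGTCA. Windows of all tested genes numbered 13851, of which 8.04% held this E-box, 0.657% this D-box and 1.82% this RORE core. Among clock genes 5 held an E-box, 1 a D-box and 1 a RORE core. They are shown because their genes are among those whose peaks are described above, and a part of these elements in the order of peaks was not tested. The match is in capitals as read on the gene's strand, 5′ to 3′. Ciart holds 3 E-boxes, 44, 58 and 116 bases before its start. Of the RORE core in Nfil3 the complement TGACCTA stands on the gene's strand.
Ciart, E-box, chr3:95882261-95882306, minus strand: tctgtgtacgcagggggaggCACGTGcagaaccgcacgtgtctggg
Ciart, E-box, chr3:95882319-95882364, minus strand: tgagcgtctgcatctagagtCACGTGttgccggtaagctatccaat
Per1, E-box, chr11:69098763-69098808, plus strand: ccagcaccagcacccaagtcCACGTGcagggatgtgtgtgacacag
Cry1, E-box, chr10:85185089-85185134, minus strand: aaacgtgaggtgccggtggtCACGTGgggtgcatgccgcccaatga
Bhlhe41, E-box, chr6:145865548-145865593, minus strand: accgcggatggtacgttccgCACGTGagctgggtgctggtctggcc
Tef, E-box, chr15:81802526-81802571, plus strand: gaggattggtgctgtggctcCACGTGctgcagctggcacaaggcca
Nfil3, RORE core, chr13:52981040-52981071, minus strand: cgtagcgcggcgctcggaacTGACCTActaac
Per3, D-box, chr4:151044796-151044843, minus strand: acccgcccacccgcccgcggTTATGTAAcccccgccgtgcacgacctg
Per3, D-box, chr4:151044843-151044890, minus strand: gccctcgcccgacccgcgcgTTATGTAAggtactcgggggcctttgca

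The share of windows with a match was then set out by peak time. The D-box stood in 20 of the 914 windows (2.19%) of called genes that peaked in the 6 h around 20 h, a few hours after Dbp itself, and in 0.184%, 0.416% and 0.0898% of windows for the 6 h around 2, 8 and 14 h. With an amplitude of at least 0.5, the share around 20 h was 5.18% of 193 windows. The E-box stood in 10.2% and 9.96% of windows for peaks around 14 h and 20 h, and in 7.18% and 8.46% around 2 h and 8 h. The RORE core stood in 1.29%, 2.91%, 2.34% and 1.97% of windows for peaks around 2, 8, 14 and 20 h. A gene can have several overlapping windows, no test was made, and a match is a run of letters and not a bound site. In all, 86 tested genes held the D-box and 23 of them were called, a share near the 26.2% of all tested genes, and 17 of the 23 peaked around 20 h. Those of the 17 with an amplitude of at least 0.5 besides Per3 were Coq10b (peak 17.4 h), Map2k6 (18.9 h), Slc16a12 (19.6 h), Gde1 (20.6 h), Homer2 (20.6 h), Ak4 (20.7 h) and Wnt5b (21.6 h), and all but Coq10b were picked for this match after their values were seen. TTACATAA is the complement of TTATGTAA.
Coq10b, chr1:55052588-55052635, plus strand: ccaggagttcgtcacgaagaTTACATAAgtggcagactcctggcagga
Map2k6, chr11:110478265-110478311, plus strand: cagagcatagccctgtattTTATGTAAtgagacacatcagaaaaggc
Slc16a12, chr19:34747377-34747424, minus strand: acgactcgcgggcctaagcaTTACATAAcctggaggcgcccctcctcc
Gde1, chr7:118705884-118705931, minus strand: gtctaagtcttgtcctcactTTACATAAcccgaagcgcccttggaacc
Homer2, chr7:81707008-81707055, minus strand: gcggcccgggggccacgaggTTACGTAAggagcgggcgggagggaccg
Ak4, chr4:101419253-101419300, plus strand: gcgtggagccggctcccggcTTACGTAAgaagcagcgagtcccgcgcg
Wnt5b, chr6:119467303-119467350, minus strand: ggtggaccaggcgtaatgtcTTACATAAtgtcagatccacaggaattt

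Genes known as clock outputs were called in 18 of 18 cases (100%, against 26.2% of all tested genes), and 10 of them peaked in the 6 h around 20 h. Usp2, which encodes a deubiquitinase, went from a mean of 2.98 CPM at 8 h to 62.0 CPM at 17 h (amplitude 2.22 ± 0.17, peak 19.4 h). Upp2, a uridine phosphorylase gene, reached 540, 506 and 470 CPM at 17 h from 17.4 and 38.0 CPM at 2 h (2.22 ± 0.19, peak 17.9 h). Wee1, the gene of a kinase that holds back mitosis, peaked at 19.1 h (1.59 ± 0.11), and Por, the electron donor of microsomal cytochromes P450, at 19.2 h (1.31 ± 0.09, adjusted p = 1.1e-16). On the other side of the day, Elovl3, a very long chain fatty acid elongase gene, had 867, 1000 and 766 CPM at 5 h and 65.5, 41.3 and 37.2 CPM at 17 h (2.01 ± 0.18, peak 4.90 h). The libraries of these hours lay more than 10-fold apart. Pitx3, a homeobox gene, had the largest amplitude near 5 h after Npas2 among genes averaging at least 1 CPM (2.66 ± 0.25, peak 4.23 h), with 7.62 to 8.64 CPM at 5 h and 0.0300 to 0.137 CPM at 17 h. It lies on chromosome 19 from 46135685 to 46148326 on the minus strand, and Elovl3 from 46131897 to 46135694 on the plus strand, so the ends of these genes overlap. The strand setting of the counting is not known here, so reads of Elovl3 and Pitx3 cannot be told apart at that overlap.

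Called genes of fatty acid synthesis peaked mostly in the evening hours. Of 21 measured genes of de novo lipogenesis 12 were called (57.1%, against 26.2% of all genes), and 10 of them peaked in the 6 h around 20 h, with a mean peak of 19.0 h. Thrsp (chromosome 7, 97412938 to 97417730, minus strand), which encodes the lipogenic protein Spot14, stood at 70.2 and 89.9 CPM at 2 h and at 69.7, 118 and 77.3 CPM at 8 h. It rose to 606, 947 and 296 CPM at 14 h and to 1180 and 1380 CPM at 20 h. All 11 libraries of 14 to 23 h lay above all 11 of 2 to 11 h. Its amplitude was 2.15 ± 0.22 with a peak at 18.9 ± 0.40 h (adjusted p = 5.09e-12). Lpin1, the gene of a phosphatidate phosphatase that also coactivates PPARα, was sharper, with 712 and 615 CPM at 20 h but 84.5, 129 and 95.5 CPM by 23 h (1.86 ± 0.17, peak 18.6 h). The desaturase gene Fads2 (0.59 ± 0.13, peak 18.8 h) and the citrate carrier gene Slc25a1 (0.31 ± 0.05, peak 16.4 h) moved less.

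Of 25 cholesterol synthesis genes 12 were called (48.0%), 8 of them peaking in the 6 h around 14 h, with a mean peak of 15.7 h. Mvk, mevalonate kinase, had 26.4, 26.3 and 25.9 CPM at 11 h and 12.0 and 10.3 CPM at 2 h (0.53 ± 0.11, peak 14.3 h, adjusted p = 0.012). Fdft1, squalene synthase, peaked at 14.4 h, and Stard4, a sterol carrier gene, at 16.0 h. The count of 12 rests on few libraries, since it was 6 without replicate 1 at 17 h, 5 without clock hour 2, 7 without clock hour 5, 4 without clock hour 17 and 4 on log2(TPM + 1).

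Called genes of fat burning peaked mostly in the adjoining 6 h windows around 20 h and 2 h. Of 32 PPARα target and fatty acid oxidation genes 15 were called (46.9%). Of these, 6 peaked in the 6 h around 20 h, 6 around 2 h, 3 around 14 h and 0 around 8 h, with a mean peak of 22.6 h. Pdk4, whose kinase shuts off pyruvate use in fasting, had 34.3, 19.4 and 30.0 CPM at 5 h against 2.91, 2.36 and 2.22 CPM at 14 h (1.63 ± 0.14, peak 3.97 ± 0.32 h, adjusted p = 2.18e-10). Acot1, an acyl-CoA thioesterase gene, peaked at 1.16 ± 0.45 h (0.76 ± 0.09). The fatty acid hydroxylase genes Cyp4a10 and Cyp4a14 peaked at 3.51 and 4.35 h, but Cyp4a14 had 1500 and 979 CPM at 2 h and then 976, 325 and 365 CPM at 5 h, and reads shared by the near-identical Cyp4a genes were divided by estimate. Of the lipid droplet genes 11 of 22 were called (50%, against 26.2% of all tested genes). Dgat2, which makes triglyceride, peaked at 18.3 h (0.30 ± 0.04) and the lipase genes Pnpla2 and Lipe at 16.7 h and 18.0 h, whereas the droplet coat gene Plin5 peaked at 2.23 h (0.44 ± 0.06).

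**Figure D3:**
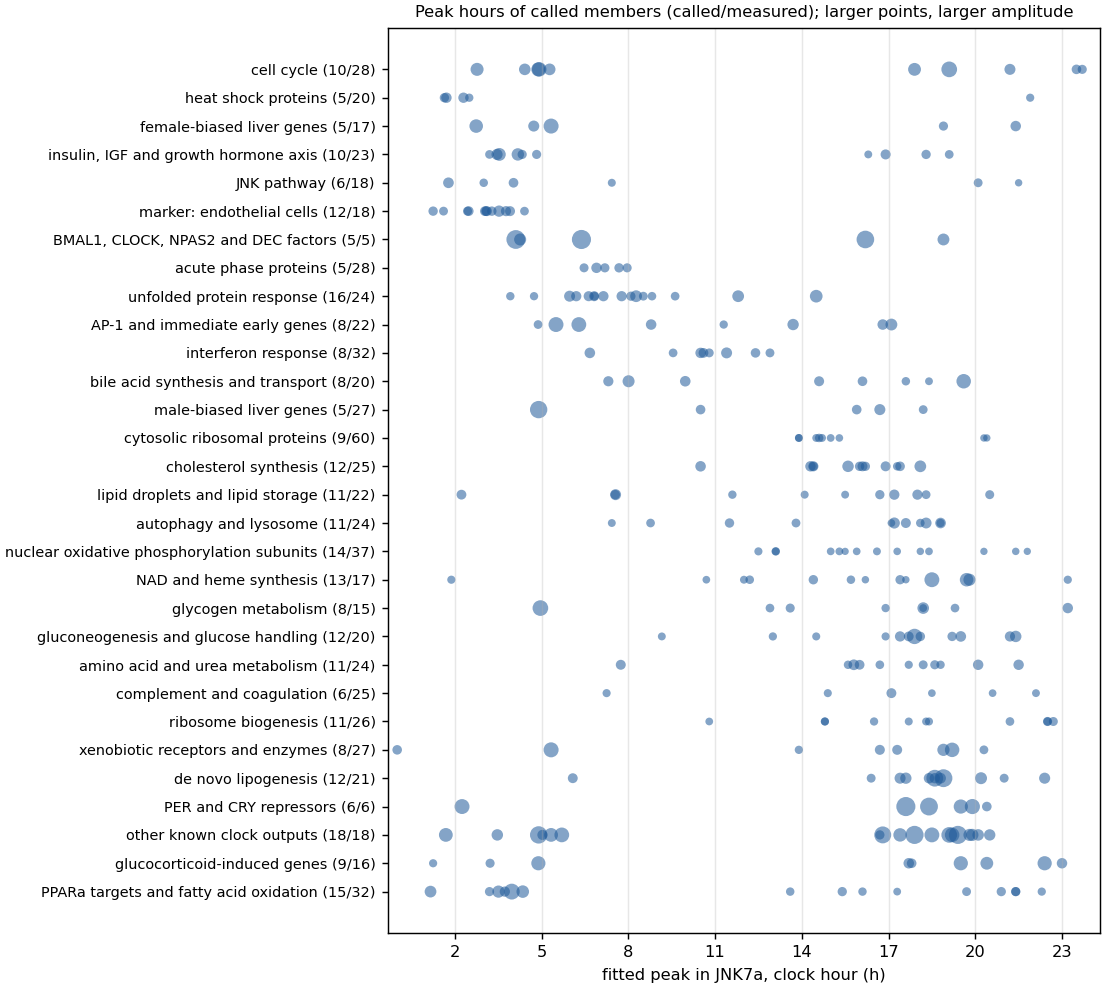
Fitted peak hour in JNK7a of each called member of the gene lists with at least 5 calls, with the point size growing with amplitude and the number called and measured in brackets. Lipogenesis members cluster near 19.0 h, unfolded protein response members near 7.67 h, and endothelial markers near 3.00 h.

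Of 20 bile acid genes 8 were called (40.0%, and 5 without clock hour 17), 3 in the 6 h around 8 h, 2 around 14 h and 3 around 20 h. Cyp7a1, the rate-limiting enzyme of bile acid synthesis, had 65.8, 60.1 and 28.0 CPM at 8 h and 320, 202 and 312 CPM at 17 h (1.31 ± 0.18, peak 19.6 ± 0.51 h, adjusted p = 1.92e-05). Nr0b2, which encodes SHP, a repressor of Cyp7a1, peaked at 8.01 ± 0.87 h (0.81 ± 0.19), and Abcb11, whose product exports bile salts, at 7.31 ± 0.35 h. Abcb11 had 745, 683 and 761 CPM at 11 h and 375, 356 and 388 CPM at 17 h (0.49 ± 0.04, adjusted p = 3.02e-11). Hsd3b7, a later enzyme of the synthesis pathway, peaked at 9.97 ± 0.51 h.

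Of 20 genes of glucose handling 12 were called (60.0%), 8 of them in the 6 h around 20 h. The glucose transporter gene Slc2a2 (0.52 ± 0.06, peak 17.4 h), the glucose 6-phosphate transporter gene Slc37a4 (0.57 ± 0.08, 19.5 h) and the transcription factor gene Foxo1 (0.51 ± 0.06, 21.2 h) were among them. Pfkfb3, whose enzyme makes the activator of glycolysis, moved most of the 4 named, from 3.43, 2.62 and 5.09 CPM at 8 h to 29.0 and 39.3 CPM at 20 h (1.51 ± 0.21, peak 17.9 h). In glycogen metabolism 8 of 15 were called (53.3%, and 5 genes on log2(TPM + 1)), with the synthase and its phosphatase subunits apart. Gys2, liver glycogen synthase, had 288, 292 and 333 CPM at 17 h against 114 and 107 CPM at 2 h (0.73 ± 0.07, peak 18.2 h, adjusted p = 2.26e-14). Ppp1r3c, a subunit that brings phosphatase to glycogen, had 211, 193 and 217 CPM at 5 h and 24.1, 18.7 and 13.4 CPM at 17 h (1.58 ± 0.13, peak 4.96 h, adjusted p = 2.22e-12). Another such subunit, Ppp1r3b, peaked at 23.2 h.

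Cofactor genes were the metabolic list with the highest called share, 13 of 17 for NAD and heme synthesis (76.5%). Nampt, the rate-limiting enzyme of NAD salvage and a known clock target, had 118 and 100 CPM at 20 h and 35.1, 34.5 and 31.7 CPM at 11 h (0.83 ± 0.06, peak 19.8 h), and Nmrk1, nicotinamide riboside kinase, peaked at 19.7 h (1.10 ± 0.09, adjusted p = 7.59e-17). Alas1, the first enzyme of heme synthesis, had 1380 and 1330 CPM at 20 h and 112, 225 and 150 CPM at 5 h (1.40 ± 0.21, peak 18.5 h). Of 27 xenobiotic genes 8 were called (29.6%, near the background), among them the receptor gene Nr1i2 (PXR, 20.3 h) and Cyp2e1 (16.7 h). In amino acid and urea metabolism 11 of 24 were called (45.8%), including Prodh (20.1 h), Asl (21.5 h), Gpt (18.6 h) and Bckdha (15.6 h).

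Called protein folding genes of the endoplasmic reticulum had fitted peaks mostly in the morning hours. Of 24 unfolded protein response genes 16 were called (66.7%), 12 of them in the 6 h around 8 h, with a mean peak of 7.67 h. Pdia4, a disulfide isomerase gene, had 258, 476 and 428 CPM at 8 h and 133 and 174 CPM at 20 h (0.48 ± 0.11, peak 6.63 h, adjusted p = 0.000295), and Sdf2l1, a chaperone cofactor gene, had 34.9, 105 and 91.1 CPM at 8 h and 10.8 and 19.5 CPM at 20 h (0.77 ± 0.21, peak 8.27 h). In both, replicates 2 and 3 at 8 h were high and replicate 1 was nearer the other hours. The mean over the 24 genes was 0.86 and 0.83 above the daily mean (log2) in those replicates and 0.17 in replicate 1. By hour it was 0.27 at 2 h, -0.24 at 5 h, 0.62 at 8 h and 0.09 at 11 h. The list thus did not rise smoothly to its fitted peak, and 21 of the 24 genes were called when hour was fitted with no curve. Without replicate 2 at 8 h 8 genes were called, without replicate 3 also 8, without clock hour 8 6 and without clock hour 17 9.

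Heat shock and ribosomal protein genes differed between hours without following a single 24 h wave. Hours were compared with no curve in a second test, which called 3678 genes (25.5% of those tested), 854 of them not called by the cosine. It called 18 of 20 heat shock genes, of which the cosine called 5, and 48 of 60 cytosolic ribosomal protein genes, of which the cosine called 9. Heat shock genes stood high at 2, 8 and 23 h (means over the list 0.26, 0.33 and 0.24 above the daily mean, log2), were at -0.14 at 5 h and were lowest at 11 h (-0.37). Hsp90aa1, the inducible cytosolic HSP90 gene, had 823 and 403 CPM at 2 h, 316, 330 and 334 CPM at 5 h, and 341, 468 and 515 CPM at 8 h. At 8 h, replicate 1 lay below the others in this list as well (-0.10 against 0.54 and 0.55). The ribosomal protein list was lowest at 5 h (-0.26), where all 3 libraries were below their mean, and highest at 17 h (0.16). The cosine count for heat shock was 10, 12 and 3 without clock hours 5, 8 and 14, 10 on log2(TPM + 1), 9 with voom and 8 with 24 h and 12 h terms. That for ribosomal proteins was 39 without clock hour 2, 30 without clock hour 8, 4 without clock hour 23 and 0 without clock hours 5 or 17 or on log2(TPM + 1). It was 17 and 18 without replicate 1 or replicate 2 at 2 h, 18 without replicate 2 at 8 h and 5 without replicate 3 at 5 h. Many ribosomal protein genes have near-identical pseudogenes, so their single values are uncertain. Pdia6, an isomerase gene with means of 378 CPM at 2 h, 190 CPM at 5 h and 337 CPM at 8 h, had the smallest p among genes called by hour but not by cosine and was chosen after its values were seen.

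**Figure D4:**
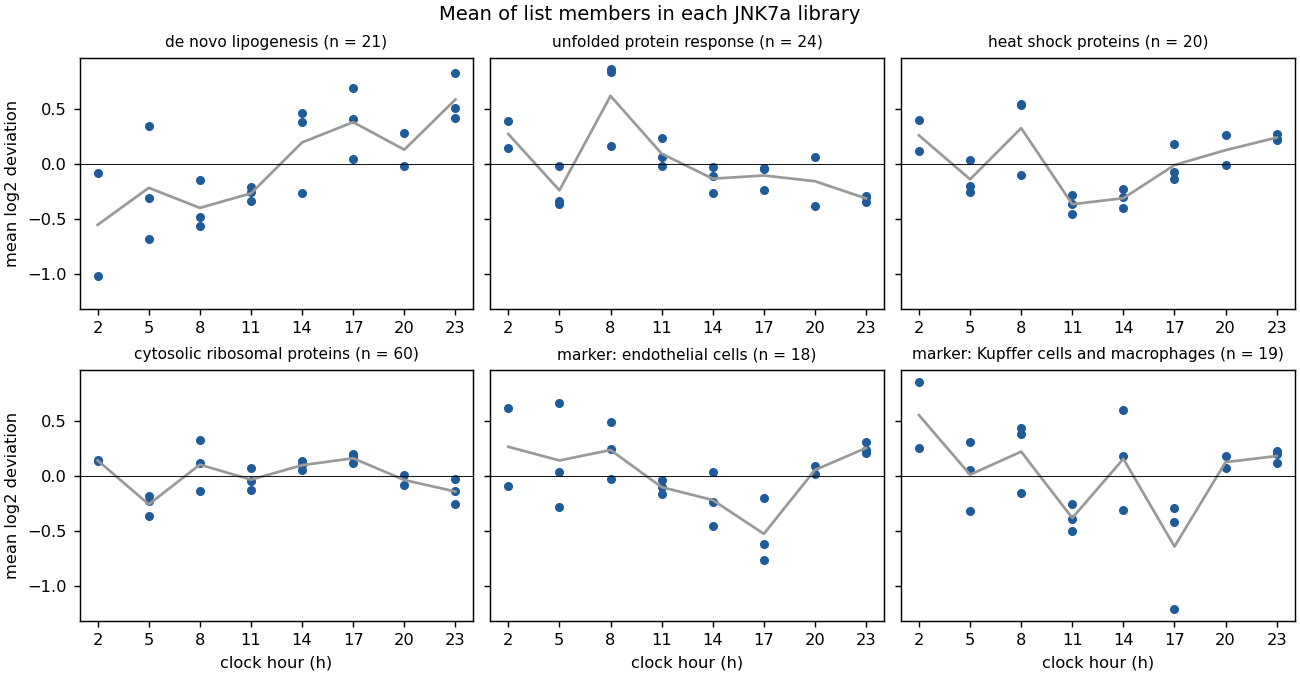
Mean over all measured members of 6 lists in each JNK7a library, as log2 deviation from each gene's mean over the 22 libraries, with a grey line through the hour means. Unfolded protein response and heat shock genes rise at 8 h in 2 of 3 libraries, and endothelial and Kupffer cell markers are lowest at 17 h.

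Nuclear genes of oxidative phosphorylation were called in 14 of 37 cases (37.8%), none of them in the 6 h around 2 h or 8 h, at a median amplitude over the list of only 0.13. Uqcrq peaked at 13.1 h (0.25 ± 0.05) and Atp5a1 at 20.3 h (0.12 ± 0.03). The count was 22 without replicate 2 at 8 h, 9, 5 and 8 without clock hours 5, 17 and 23, and 5 on log2(TPM + 1).

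Acute phase proteins are secreted by hepatocytes in inflammation. All 5 called acute phase genes of 28 (17.9%, under the background) peaked in the 6 h around 8 h, among them Crp (6.47 h), Lbp (6.90 h) and the fibrinogen genes Fgg (7.68 h) and Fgb (7.96 h). Lbp, which binds lipopolysaccharide, had 79.0, 72.0 and 92.0 CPM at 8 h and 31.8, 33.8 and 35.9 CPM at 17 h (0.53 ± 0.07, adjusted p = 8.77e-07). Of 32 interferon response genes 8 were called (25.0%, near the background), with a mean peak of 10.6 h. Isg15 led them at 11.4 ± 0.58 h (0.62 ± 0.09). The interferon count was 4 without replicate 1 at 14 h, 5 without replicate 2 at 2 h 5 without clock hour 11, 3 without clock hour 14 or 23, 4 on log2(TPM + 1), 5 with limma's trend on log2 CPM and 13 with 24 h and 12 h terms. Coagulation and complement genes were called in 6 of 25 cases (24%, near the 26.2% of all tested genes), with amplitudes for Proc, Masp2, F5 and Masp1 of 0.15 to 0.20.

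Signalling genes peaked on both sides of the day. The called shares given here stand against 26.2% of all tested genes. Of 22 immediate early genes 8 were called (36.4%, and 5 genes without clock hour 11, 14 or 23), but Fos and Egr1 were uneven within hours. Fos had 0.766, 8.03 and 2.00 CPM at 8 h and 0.919, 0.459 and 7.24 CPM at 5 h (1.41 ± 0.32, peak 5.50 h, adjusted p = 0.000271), and Egr1 5.83, 52.5 and 28.6 CPM at 8 h (1.38 ± 0.33, peak 6.29 h), so replicates of an hour overlapped with those of others. In the JNK pathway 6 of 18 genes were called (33.3%, near the 26.2% of all tested genes), and 4 to 8 over the alternatives. The median amplitude of this list was 0.12, below the 0.19 of all tested genes. Called members of smallest p were the upstream kinase genes Map3k13 (0.58 ± 0.12, peak 1.78 h) and Map3k5 (0.30 ± 0.07, peak 20.1 h). The phosphatase gene Dusp16 peaked at 3.00 h and the kinase gene Map3k1 at 4.03 h. Glucocorticoid-induced genes were called in 9 of 16 cases (56.2%). Fkbp5, a cochaperone that dampens the receptor, had 93.6 and 88.7 CPM at 20 h and 12.1 to 50.4 CPM at all other hours (0.96 ± 0.15, peak 20.4 h, adjusted p = 7.65e-10), and Zbtb16 rose with it, with 25.9 and 37.7 CPM at 20 h (1.25 ± 0.26, peak 22.4 h). Cdkn1a, the p21 cell cycle inhibitor gene on the same list, peaked at 4.89 h (1.24 ± 0.17). Of 23 genes of the insulin, IGF and growth hormone axis 10 were called (43.5%). Irs1, an insulin receptor substrate gene, peaked at 3.46 h and Stat5b at 4.83 h, opposite to Igfbp4 at 18.3 h and Trib1 at 16.9 h. In autophagy and lysosome genes 11 of 24 were called (45.8%), with Bnip3 (18.8 h), Ulk1 (17.6 h), Fnip2 (18.3 h) and Cebpb (17.2 h) close together. Of 26 ribosome biogenesis genes 11 were called (42.3%, and 5 genes on log2(TPM + 1)), at amplitudes of 0.16 for Ubtf to 0.34 for Rrp12 among those named. Of 28 cell cycle genes 10 were called (35.7%), with Mki67 at 2.77 h (1.00 ± 0.23) and Ccne2 at 21.2 h. The cold-inducible RNA-binding protein gene Rbm3 peaked at 18.6 h (0.60 ± 0.09) and Cirbp at 13.5 h (0.43 ± 0.09), while Tra2a, a splicing factor gene, peaked at 2.84 h.

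Among markers of cells other than hepatocytes, the endothelial list held the most calls. In whole liver, fewer cells of a type and less RNA per cell cannot be told apart. Of 18 endothelial markers 12 were called (66.7%, and 7 without clock hour 17), all in the 6 h around 2 h. The count was 8 without replicate 2 at 2 h and at 23 h together. The 18 summed to 190 to 544 CPM, from a mean of 230 CPM at 17 h to 412 CPM at 2 h. At 2 h the mean log2 deviation of the list was -0.09 in replicate 1 and 0.62 in replicate 2, so only replicate 2 stood high. The 18 markers had a median amplitude of 0.35 in JNK7a and 0.17 in control. For Stab2, Lyve1, Tek and Oit3 the adjusted p of the rhythm difference with control was 0.839 to 0.909 (edgeR's quasi-likelihood test). Lists differed in which group had the larger median, and that of the unfolded protein response was 0.29 in JNK7a and 0.40 in control. Stab2, a scavenger receptor of liver sinusoids, had 20.2, 41.9 and 53.3 CPM at 5 h and 11.9, 17.2 and 13.8 CPM at 17 h (0.47 ± 0.12, peak 3.91 h, adjusted p = 0.000841), so only part of the 5 h libraries stood high. Kupffer cell and macrophage markers were called in 4 of 19 cases (21.1%, under the 26.2% of all tested genes), with Adgre1 (F4/80) at 2.36 h and Lyz2 at 3.62 h, and summed to a mean of 239 CPM at 17 h and 542 CPM at 2 h, with none of the 19 at 0 in all libraries. The number called was 8 without replicate 1 at 14 h, 9 without clock hour 14 and 2 without clock hour 17 or 20. Stellate cell markers were also lowest at 17 h and highest at 2 h (355 and 486 CPM). Replicate 2 at 2 h again lay above replicate 1 in the mean log2 deviation of the Kupffer cell list (0.85 and 0.25) and of the stellate list (0.52 and 0.15). No T and NK cell, neutrophil or red blood cell marker was called among 13, 3 and 5 measured. The B cell call of Ighm was lost without replicate 2 at 2 h. These marker levels moved with the 1076 genes that peaked around 2 h, and their part in those rhythms was not tested.

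Other genes with large amplitudes stood at each time of day. Lonrf3, a RING finger gene, peaked at 1.69 h (1.16 ± 0.07), and Gas7, a growth arrest gene, at 7.37 h (1.03 ± 0.15). Serpinb1a, a protease inhibitor gene, and Defb1, a defensin gene, peaked at 7.23 and 7.41 h. Near 11 h stood Hectd2os, an antisense RNA gene with 24.8 CPM on average at 23 h and 102 CPM at 11 h (1.06 ± 0.21, peak 11.1 h), whose reads cannot be told from those of the opposite strand, and Mrnip (0.96 ± 0.12, peak 10.8 h). Pnldc1 (15.1 h) and the glutathione-degrading enzyme gene Chac1 (14.5 h) had the largest amplitudes near 14 h after Nr1d1, and Lingo4 (23.5 h) and Nat8f6 (22.7 h) those near 23 h. Among sex-biased liver genes, 5 of 27 male-biased and 5 of 17 female-biased genes were called (18.5% and 29.4%, against 26.2% of all tested genes). The latter count was 3 without replicate 2 or 3 at 8 h, replicate 3 at 17 h or replicate 1 at 20 h, and 2 without clock hour 17. Libraries of an hour stood apart in these lists. Replicate 2 at 2 h had a mean log2 deviation of 1.51 for the female-biased and -1.28 for the male-biased list, and replicate 1 at 8 h of 0.57 and -1.07, where its partners were at -0.53 and -0.50 and at 0.51 and 0.44. Replicate 1 at 5, 11 and 14 h was also above its partners in the female-biased list (0.84, 0.41 and 0.42), and below both in the male-biased list at 11 and 14 h. The part of these differences in other results was not tested. Cyp2b9, of the female-biased list, had 104 CPM in replicate 1 at 8 h against 3.05 and 4.54 CPM in its partners, so its peak at 5.33 ± 1.41 h rests on uneven libraries, and it shares reads with near-identical genes.

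The rhythms of JNK7a were then compared with those of the other groups. By the same test 3405 genes were called in control (23.6%) and 2445 in JNK7b (17%). Of the JNK7a calls 2167 were also called in control, which is 57.4% of the JNK7a and 63.6% of the control calls, and their peaks came a median of 0.41 h later in JNK7a, with 94.5% within 3 h. The spread of each gene was estimated from the libraries of all groups, so calls in different groups are not independent. The part of this shared spread in the overlap of calls was not tested. Genes called in JNK7b thus give a set chosen by the rhythm in JNK7b, but not free of the JNK7a libraries. Of these 2445, 72.4% were called in JNK7a, at a median amplitude of 0.26 against 0.25 in control and 0.28 in JNK7b, and 88.9% peaked within 3 h of their control peak. In this set 56.9% had the larger amplitude in JNK7a than in control, and the median peak difference was 0.26 h. Of the 19 clock genes, 14 had the larger amplitude in JNK7a and 17 the later peak, by a median of 0.48 h over the 19. Against JNK7b, in a comparison that shares the JNK7a libraries, the median peak difference was -0.093 h. None passed the test of the difference. The smallest unadjusted p was that of Per2 (0.0162, adjusted p = 0.796), with an amplitude of 1.46 ± 0.10 in JNK7a and 0.99 in control and a 95% interval of the difference from 0.12 to 0.81. For Arntl that interval ran from -0.38 to 0.88 and for Dbp from -0.35 to 1.30, so differences within these intervals were not resolved at this spread. Against JNK7b the smallest adjusted p of a clock gene was 0.862.

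Over all genes, 1 gene differed in its rhythm between JNK7a and control (0.00695% of those tested), Acnat2, and 0 (0%) between JNK7a and JNK7b. At an unadjusted p under 0.05 there were 803 (5.58%) and 772 (5.36%). DESeq2 called 2 and 0. Acnat2 (chromosome 4, 49379840 to 49408151, minus strand), an acyltransferase gene that conjugates fatty acids in peroxisomes, had 75.8 and 66.7 CPM at 2 h, 96.0, 57.2 and 99.2 CPM at 5 h, and 9.60, 13.7 and 15.2 CPM at 17 h in JNK7a. In control it had 53.3, 44.7 and 47.0 CPM at 17 h, above all JNK7a libraries of that hour, and 98.4, 122 and 98.0 CPM at 23 h against 36.7, 23.0 and 37.4 CPM. The amplitude was 1.30 ± 0.14 with a peak at 4.41 ± 0.42 h in JNK7a and 0.88 with a peak at 23.9 h in control (adjusted p of the difference = 0.0036). The libraries of JNK7a lay below those of control at 2, 14, 17, 20 and 23 h, and the groups overlapped at 5, 8 and 11 h. In JNK7b the amplitude was 0.61 with a peak at 1.59 h. The call was lost without clock hour 17 (adjusted p = 0.167), 20 (0.125) or 5 (0.0644) and with a replicate block (0.0503), and the adjusted p ran from 1.55e-05 to 0.167 over the alternatives. Reads shared with the neighbouring paralogue Acnat1 were divided by estimate.

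**Figure D5:**
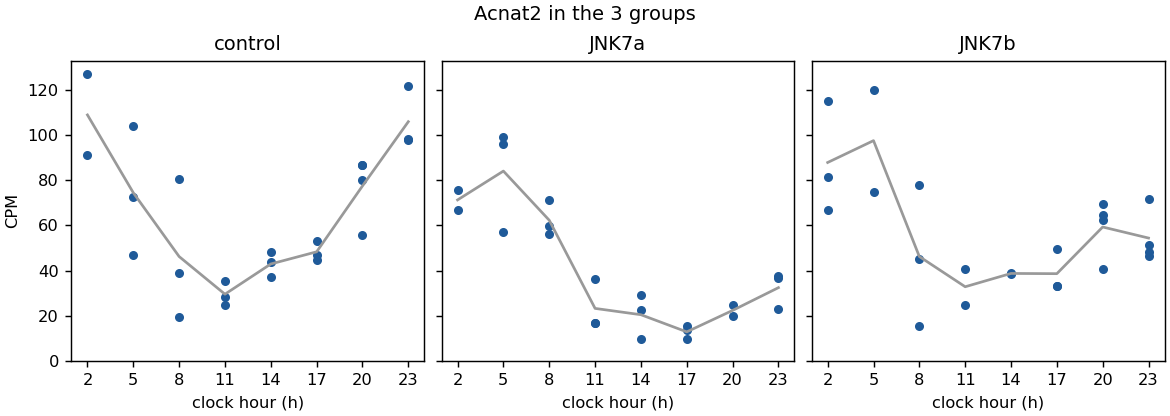
Acnat2 in CPM against clock hour in each library of control, JNK7a and JNK7b, with a grey line through the hour means. JNK7a libraries at 17 h lie between 9.60 and 15.2 CPM and control libraries between 44.7 and 53.3 CPM.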

How the data were processed

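The libraries were made from RNeasy-extracted, DNase I-treated liver RNA by polyA selection, and read in pairs of 150 bases on the NovaSeq6000 platform, per the labels' protocols. The submitters' processing notes name cutadapt, Salmon and mm10 without versions or settings. The authors deposited estimated counts per gene (expected counts, not whole), rounded here before testing, and TPM, used here for alternatives and for the mitochondrial share. Of 55487 lines, 234 shared a symbol and were summed, giving 55367 symbols.

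Genes were filtered with filterByExpr and scaled with TMM. The edgeR quasi-likelihood test (edgeR 4.0.16, R 4.3.3, robust) used all 69 libraries, an intercept, a cosine and a sine per group and 60 residual degrees of freedom, with Benjamini-Hochberg adjustment. Amplitudes came from least squares on log2 CPM (prior count 2). With a common biological coefficient of variation of 0.274, spread between libraries rather than counting limits all but low genes. The code was tested on simulated data. No pair of JNK7a libraries of an hour agreed within sampling noise (20 pairs, chi-square per degree of freedom 21.1 to 240.0).

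The members and lists were chosen with earlier results of these data known. Named are all clock-list genes, Mapk8 and Mapk9, the 3 largest amplitudes per 3 h of peak time, up to 4 called members of smallest p per list (the 2 most expressed where none was called) and up to 8 genes per rhythm difference, with a mean of at least 1 CPM and no provisional symbol; exceptions are marked; a few genes fitting it are left out of the text. Positions are from GENCODE for mm10, promoters from RefSeq (GRCm38.p6). Alternatives were median-ratio factors, DESeq2 1.42.0, dropping the filter on low counts or asking for 1 CPM on average, limma 3.58.1 (voom with quality weights, trend on log2 CPM, log2 TPM with pseudocounts 1 and 0.1), 24 h and 12 h terms, hour as a factor, a replicate block, fewer groups, and leaving out libraries or hours. A last one, leaving out replicate 2 at 2 h and at 23 h together, was chosen after seeing the data.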

Additional observations from a re-analysis of the deposited data

Results flagged for a closer look

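The difference in rhythm of Acnat2 between JNK7a and control was picked out because the difference between 2 groups passed its own test (edgeR's quasi-likelihood test, Benjamini-Hochberg adjusted p = 0.0036), with amplitudes of 1.30 in JNK7a and 0.88 in control and peaks at 4.41 and 23.9 h. All 3 JNK7a libraries at 17 h lay below all 3 control libraries of that hour.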

How the results depend on the processing

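The count of rhythmic genes in JNK7a stayed within 1.5 times of 3774 in the alternatives run except without clock hour 17, where it was 2508. Leaving out single JNK7a libraries gave 3389 to 4088. The genes called changed more than their number. Of the 3774 main calls, 3077 were called again with only the 22 JNK7a libraries, 2624 on log2(TPM + 1) and 2443 without clock hour 17. Of 169 named genes, 7086 of 7267 values under alternatives kept their side of the threshold, 181 lost the call and 0 moved the peak of a called gene by over 6 h. Without clock hour 17, and on log2(TPM + 1) and log2(TPM + 0.1), 20 genes each lost the call. Pdgfrb, Trim24, Cd163 and Cela1 lost their calls in 22, 18, 18 and 15 alternatives. The replicate block gave 3801 rhythmic genes, and for the difference with control 0 genes in place of 1; it changed no other count by over 1.5 times. Deviations of same-numbered libraries from their group and hour correlated at -0.141 to 0.113 with control (22 pairs) and -0.214 to 0.0666 with JNK7b (19 pairs). These values show no strong shared deviation. Each hour's mean rests on few libraries, so they cannot settle whether replicate numbers pair samples. At 2 h, with 2 libraries in JNK7a and in control, both pairs give the same value (0.113).

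The difference with control was also 0 without clock hours 5, 17 or 20, 2 without clock hours 11 or 23 and with DESeq2, and 426 with no filter, of which 408 were genes outside the 14398. The difference with JNK7b, 0 in the main test, was 443 with no filter (426 outside the 14398) and 1 with a mean of at least 1 CPM and without clock hours 8 or 20. Leaving out single libraries gave 1 for control and 0 for JNK7b throughout. The causes were not tested. The voom fit called 40 of 60 ribosomal protein and 26 of 37 oxidative phosphorylation genes. Depth limits genes such as Npas2, which had no count at 20 h. With 1 day sampled, rhythms that recur daily and events of that day cannot be told apart.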
